A study of Mus musculus with 16 samples.

Results

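The genes described here are 10 genes of acetylcholine signalling in mouse brain punches. Chat, Slc5a7, Slc18a3, Ache and Isl1 belong to cholinergic neurons and motor neurons, and Chrm1 to Chrm5 are the 5 muscarinic acetylcholine receptors. They were chosen by name, by matching each symbol to its Ensembl ID in the mouse GENCODE annotation of mm10. Of the 10 genes, 9 were measured, out of 38924 gene rows in each deposited count table, and all 9 passed the filter on low counts. Slc18a3 (ENSMUSG00000100241, chr14:32462438-32464850, minus strand), which encodes the vesicular acetylcholine transporter and lies inside the Chat gene, was not analysed here.

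The series measured messenger RNA in 16 libraries from punches labelled as ventral posterolateral thalamic nuclei, a relay for touch and pain signals, and each library pooled 4 punches from 2 mice. The 4 groups, of 4 libraries each, were CFA libraries labelled RGS4 KO (libraries 13 to 16), naive libraries labelled RGS4 KO (5 to 8), CFA libraries labelled WT (9 to 12) and naive libraries labelled WT (1 to 4). CFA is not spelled out in the labels; the abbreviation usually means complete Freund's adjuvant, which causes lasting inflammation where it is injected. The series text describes a floxed RGS4 line with Cre delivered by an adeno-associated virus into this nucleus, while the sample labels give only a KO genotype, and the promoter driving Cre is not given in the sources used here.

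Rgs4, the targeted gene, averaged 84.1 ± 5.5 CPM (counts per M counts of the scaled library size) in CFA libraries labelled KO and 81.3 ± 2.74 CPM in naive libraries labelled KO, against 89.3 ± 6.66 CPM in WT CFA libraries and 80.9 ± 3.66 CPM in WT naive libraries (SD, n = 4 each). The fold of labelled KO over WT was 0.939 after CFA (95% interval 0.871 to 1.01, adjusted p = 0.519) and 1.005 in naive libraries (0.93 to 1.08, adjusted p = 0.979, edgeR quasi-likelihood test with Benjamini-Hochberg adjustment). The 8 libraries are therefore called "labelled KO" throughout. The labels name female mice and the protocol male mice. Xist lay between 560 and 750 CPM in all libraries, and the sum of 4 Y-linked genes reached 1.29 CPM in WT naive library 2 and at most 0.173 CPM in the other libraries. Total counts ranged from 18.1 M to 78.8 M per library, with a median of 42.6 M. The summed level of 12 thalamic relay neuron markers was 966 to 1114 CPM in labelled KO CFA, 990 to 1111 CPM in labelled KO naive, 973 to 1085 CPM in WT CFA and 964 to 1020 CPM in WT naive libraries. This sum rests mostly on Slc17a6, Calb2 and Tcf7l2, with means of 470, 197 and 138 CPM over all libraries. Other listed markers were far lower, such as Gbx2 at 0.0802 CPM and Tnnt1 at 1.01 CPM. The sum therefore does not measure how much of the relay nucleus each library held.

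Cholinergic neurons take up choline through the high-affinity transporter Slc5a7, join it to an acetyl group with choline acetyltransferase (Chat), and load the product into vesicles; acetylcholinesterase (Ache) then breaks it down at the synapse. Muscarinic receptors answer acetylcholine through G proteins, with Chrm1, Chrm3 and Chrm5 coupled to Gq and Chrm2 and Chrm4 coupled to Gi/o. Thalamic relay nuclei receive cholinergic axons from the brainstem, whereas the cell bodies that transcribe Chat and Slc5a7 lie mainly elsewhere, among them brainstem and midbrain motor nuclei, the pontine tegmentum, the medial habenula and the basal forebrain. Isl1 is a LIM-homeodomain transcription factor of motor neurons and some forebrain cholinergic neurons.

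The sequences just upstream of Chat, Slc5a7 and Isl1 are shown because the RNA levels of these 3 genes moved together across libraries, as described below. Each sequence ends at the base before the annotated start, is read 5′ to 3′ on the minus strand of GRCm38.p6 and is credited to RefSeq. They are chr14:32465990-32466159 for Chat (170 bases), chr17:54299035-54299284 for Slc5a7 (250 bases) and chr13:116309690-116309938 for Isl1 (249 bases). Capitals mark TAAT or its reverse complement ATTA, the core that many homeodomain proteins recognise.
Chat: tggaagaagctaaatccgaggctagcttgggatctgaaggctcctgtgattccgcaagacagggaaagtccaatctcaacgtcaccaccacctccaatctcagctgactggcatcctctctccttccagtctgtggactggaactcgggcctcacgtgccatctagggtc
Slc5a7: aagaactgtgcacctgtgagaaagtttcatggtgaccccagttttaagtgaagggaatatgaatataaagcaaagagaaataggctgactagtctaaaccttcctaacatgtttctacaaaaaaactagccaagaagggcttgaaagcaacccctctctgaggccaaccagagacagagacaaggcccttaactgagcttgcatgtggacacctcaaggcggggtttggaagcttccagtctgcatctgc
Isl1: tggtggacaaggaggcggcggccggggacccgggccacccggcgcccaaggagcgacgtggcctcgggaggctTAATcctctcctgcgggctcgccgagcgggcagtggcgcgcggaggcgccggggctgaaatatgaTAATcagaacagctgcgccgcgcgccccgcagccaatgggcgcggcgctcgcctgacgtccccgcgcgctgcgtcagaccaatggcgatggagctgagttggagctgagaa
The Isl1 window held 2 matches, and the Chat and Slc5a7 windows held 0. Among 27025 promoters in the RefSeq table, 47.2% held TAAT or ATTA in a window of 170 bases and 55.3% did so in windows of 249 or 250 bases, counting both strands. These matches describe the letters of the windows only. Of the 10 genes, 9 matched the promoter table, and Chrm1 is named only.

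Levels of different genes were compared as RPKM (CPM divided by the exon length in kilobases), averaged over all 16 libraries. Ache was the highest at 50.5 ± 2.64 RPKM (SD, n = 16), followed by Chrm2 at 8.83 ± 0.554 RPKM. Both steps were seen in all 16 libraries, with Ache above Chrm2 and Chrm2 above Chrm3. Chrm3 averaged 3.82 ± 0.22 RPKM, Slc5a7 3.67 ± 3.21 RPKM and Chrm5 2.49 ± 0.341 RPKM. Chrm3 exceeded Slc5a7 in 11 of 16 libraries and Slc5a7 exceeded Chrm5 in 9 of 16, so the place of Slc5a7 in this order differed between libraries. Chat averaged 1.28 ± 1.01 RPKM and lay below Chrm5 in 15 of 16 libraries. Its mean was above the 1.2 ± 0.225 RPKM of Chrm4, yet it was the higher of the pair in only 5 of 16 libraries. Chrm1 averaged 0.828 ± 0.214 RPKM, below Chrm4 in 13 of 16 libraries, and Isl1 averaged 0.253 ± 0.17 RPKM, below Chrm1 in all 16 libraries. The gene models of Chrm4 and Chrm5 used here cover the coding length only (1440 and 1599 bases), so their RPKM rest on shorter lengths than full transcripts would give. All later levels are CPM and compare libraries within a gene.

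The 9 genes fell apart by how much they varied between libraries. Chat and Slc5a7 differed 32.3-fold and 33.5-fold between the highest and the lowest library, Isl1 10.5-fold and Chrm1 2.44-fold, whereas Ache differed by only 1.17-fold, Chrm2 by 1.22-fold and Chrm3 by 1.24-fold. The biological coefficient of variation within groups, as edgeR estimated it, was 66.5% for Slc5a7 and 64.8% for Chat, against a median of 5.65% over all tested genes, which placed both at percentile 99.9. Isl1 (38%, percentile 99.3) and Chrm1 (16.2%, percentile 92.1) were also above that median. Chrm4 had 13.1% and Chrm5 7.26%, while Ache (5.42%), Chrm3 (4.72%) and Chrm2 (4.7%) lay below the median. In bulk punches, fewer cells of a type and less RNA per cell cannot be told apart.

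Slc5a7 (ENSMUSG00000023945.6, chr17:54273590-54299034, minus strand), the choline transporter, had 13.8, 11.5, 11.05 and 22.4 CPM in labelled KO CFA libraries 13 to 16. It had 2.14, 31.3, 35.1 and 2.72 CPM in labelled KO naive libraries 5 to 8. It had 71.6, 28.1, 42.0 and 20.2 CPM in WT CFA libraries 9 to 12, and 6.92, 17.4, 2.54 and 12.6 CPM in WT naive libraries 1 to 4. The labelled KO naive group split into a low pair (5 and 8) and a high pair (6 and 7), and all 4 WT CFA libraries lay above all 4 WT naive libraries. The labelled KO CFA libraries overlapped both naive groups, and library 16 lay above WT CFA library 12.

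Chat (ENSMUSG00000021919.7, chr14:32408203-32465989, minus strand), which makes acetylcholine, had 4.19, 3.59, 3.51 and 6.48 CPM in labelled KO CFA libraries 13 to 16. It had 0.574, 9.51, 10.2 and 1.08 CPM in labelled KO naive libraries 5 to 8. It had 18.5, 7.24, 11.9 and 5.34 CPM in WT CFA libraries 9 to 12, and 2.43, 6.27, 0.889 and 4.19 CPM in WT naive libraries 1 to 4. The libraries fell in nearly the same order as for Slc5a7, and the ratio of Slc5a7 to Chat CPM stayed between 2.52 and 3.89 over the 16 libraries, with a median of 3.29. WT CFA library 12 lay below WT naive library 2, so for Chat these groups overlapped. The antisense gene Gm2990 lies within Chat and shares 0 exon bases with it, and its 279 counts over all libraries cannot be told apart from unspliced Chat reads with a kit that does not mark strand.

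Isl1 (ENSMUSG00000042258.7, chr13:116298281-116309689, minus strand) was near the lower limit of the measurement, with 8 to 124 counts per library. It had 0.648, 0.746, 0.367 and 0.80 CPM in labelled KO CFA libraries 13 to 16, and 0.437, 1.34, 1.43 and 0.279 CPM in labelled KO naive libraries 5 to 8. It had 2.92, 1.13, 1.92 and 1.06 CPM in WT CFA libraries 9 to 12, and 0.574, 0.883, 0.508 and 0.951 CPM in WT naive libraries 1 to 4. The WT CFA libraries lay above every labelled KO CFA library and every WT naive library, while the labelled KO naive libraries again formed a low pair and a high pair.

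**Figure D1:**
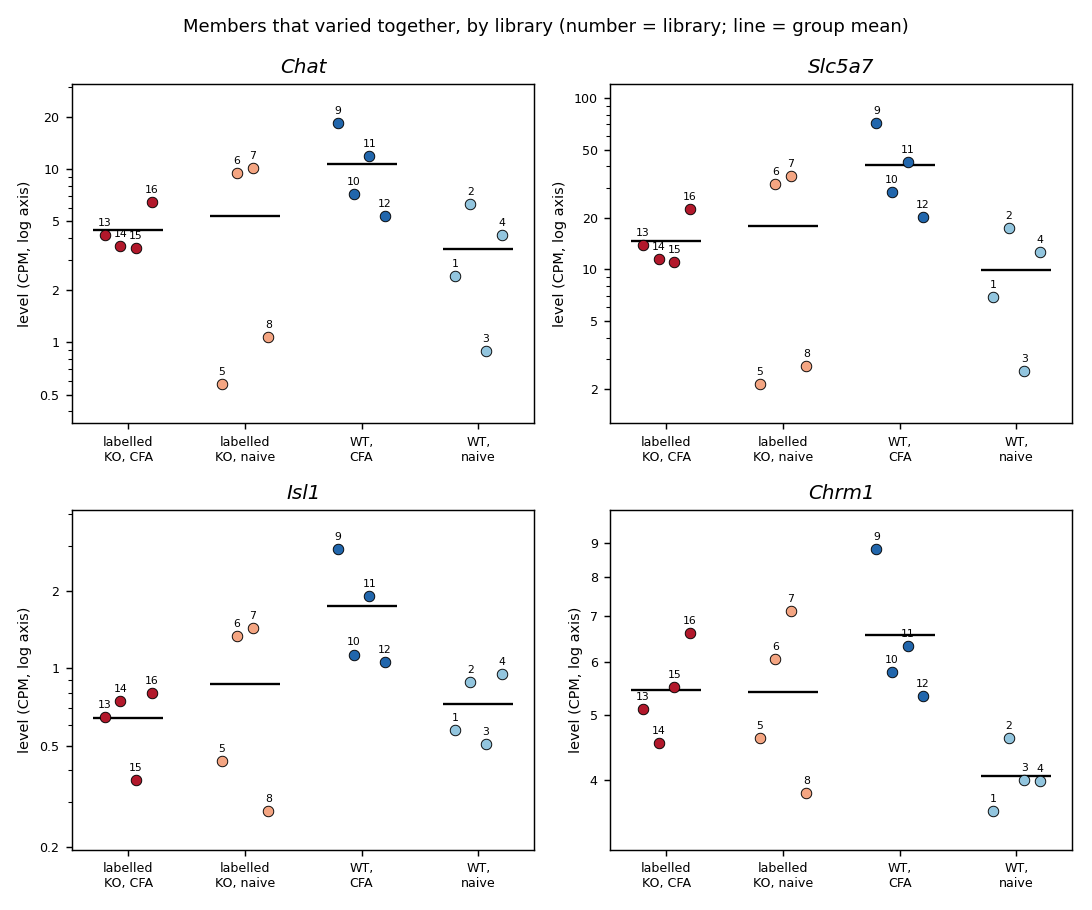
Levels of Chat, Slc5a7, Isl1 and Chrm1 in each library (CPM, log axis), by group; each point is a library with its number, and the line is the mean of 4. Among the labelled KO naive libraries, 6 and 7 lie high and 5 and 8 low in all 4 panels, and library 9 is the highest for each gene (71.6 CPM for Slc5a7, 18.5 CPM for Chat).

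Ache (ENSMUSG00000023328.8, chr5:137287519-137294466, plus strand), which ends the acetylcholine signal and is also made by cells that receive it, had a much smaller spread. It averaged 235 ± 8.94 CPM in labelled KO CFA, 229 ± 16.8 CPM in labelled KO naive, 233 ± 17.5 CPM in WT CFA and 236 ± 5.82 CPM in WT naive libraries (SD, n = 4 each). All 4 groups overlapped. Within labelled KO naive, Ache was lower in libraries 5 and 8 (216 and 213 CPM) than in 6 and 7 (246 and 240.4 CPM), the same split as for Slc5a7. Of its exon bases, 98 (2.12%) are shared with Gm42456 on the opposite strand.

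Among the muscarinic receptors, Chrm1 (ENSMUSG00000032773.3, chr19:8663789-8683587, plus strand), a Gq-coupled receptor typical of forebrain excitatory neurons, went with Slc5a7 to a degree. It had 5.11, 4.54, 5.5 and 6.61 CPM in labelled KO CFA libraries 13 to 16, and 4.62, 6.05, 7.12 and 3.83 CPM in labelled KO naive libraries 5 to 8. It had 8.8, 5.8, 6.33 and 5.34 CPM in WT CFA libraries 9 to 12, and 3.61, 4.62, 4.01 and 4.0 CPM in WT naive libraries 1 to 4. All WT CFA libraries lay above all WT naive libraries, and the labelled KO naive libraries overlapped both WT groups. Of the Chrm1 exon bases, 329 (5.07%) overlap Gm22820 on the opposite strand, which had 0 counts in all libraries.

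Chrm5 (ENSMUSG00000074939.2, chr2:112479171-112480769, minus strand), a Gq-coupled receptor known from midbrain dopamine neurons, varied little and had its lowest mean in WT naive libraries. It had 4.39, 3.98, 4.04 and 3.64 CPM in labelled KO CFA libraries 13 to 16, and 4.55, 4.67, 3.97 and 4.08 CPM in labelled KO naive libraries 5 to 8. It had 4.07, 4.24, 4.64 and 4.3 CPM in WT CFA libraries 9 to 12, and 2.79, 3.1, 3.88 and 3.23 CPM in WT naive libraries 1 to 4. The 4 WT naive libraries were the lowest apart from library 3, which lay above library 16 of the labelled KO CFA group.

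Chrm2 (ENSMUSG00000045613.3, chr6:36388084-36528414, plus strand), the Gi/o-coupled receptor with the highest muscarinic level here, had 58.9, 57.5, 55.5 and 55.4 CPM in labelled KO CFA libraries 13 to 16. It ranged from 48.2 to 59.0 CPM in labelled KO naive, from 50.04 to 53.6 CPM in WT CFA and from 49.8 to 53.0 CPM in WT naive libraries. The labelled KO CFA libraries lay above all WT CFA libraries by a small margin. Chrm2 shares 142 exon bases (2.35%) with 9330158H04Rik on the opposite strand.

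Chrm3 (ENSMUSG00000046159.9, chr13:9875486-10360847, minus strand), Gq-coupled, averaged 24.8 ± 0.818 CPM in labelled KO CFA, 23.2 ± 1.08 CPM in labelled KO naive, 24.6 ± 1.78 CPM in WT CFA and 22.9 ± 0.856 CPM in WT naive libraries (SD, n = 4 each). Chrm4 (ENSMUSG00000040495.3, chr2:91927249-91928688, plus strand), the Gi/o-coupled receptor prominent in striatum, averaged 1.78 ± 0.381 CPM in labelled KO CFA, 1.65 ± 0.282 CPM in labelled KO naive, 1.58 ± 0.198 CPM in WT CFA and 1.89 ± 0.432 CPM in WT naive libraries. For both receptors the libraries of the groups compared overlapped in all 4 comparisons.

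**Figure D2:**
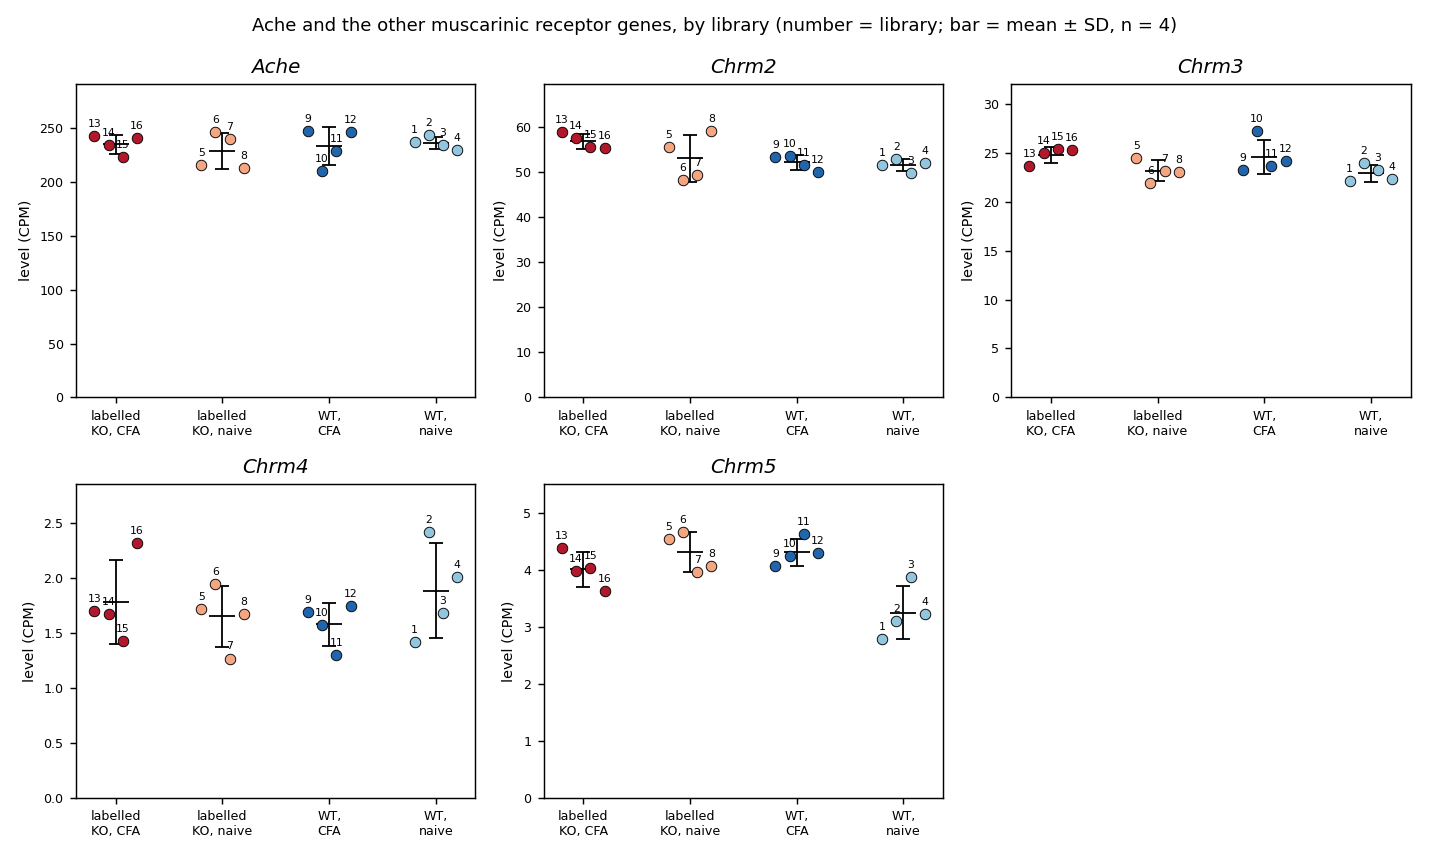
Levels of Ache and Chrm2 to Chrm5 in each library (CPM, linear axis from 0), by group; bars are the mean and error bars the SD of 4 libraries. Ache has group means between 229 and 236 CPM, and Chrm5 is lowest in WT naive libraries (3.25 ± 0.461 CPM).

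The comparison of CFA with naive libraries in WT mice asked how the punches differed after CFA. Chrm5 rose 1.32-fold in WT CFA libraries (95% interval 1.14 to 1.52, log2 change 0.40 ± 0.10 SE, adjusted p = 0.037, edgeR quasi-likelihood test with Benjamini-Hochberg adjustment), averaging 4.31 ± 0.238 CPM in WT CFA against 3.25 ± 0.461 CPM in WT naive libraries (SD, n = 4 each). It was the 1 of 9 genes called, while 2.23% of the 18350 tested genes were called in this comparison in either direction and 1.42% were called higher. The call was lost when any of WT naive library 1, 2 or 4 was left out (adjusted p = 0.095, 0.111 and 0.0734), when any of WT CFA library 10, 11 or 12 was left out (0.0697, 0.115 and 0.077), and when only these 8 libraries were fitted (0.0581). DESeq2 called it at an adjusted p of 0.0191, among 762 genes that DESeq2 called in this comparison.

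The larger folds in the same comparison did not pass, although 5 of the 9 genes had an unadjusted p under 0.05, beside 17.6% of all tested genes. Slc5a7 averaged 40.5 ± 22.6 CPM in WT CFA against 9.89 ± 6.52 CPM in WT naive libraries, a fold of 4.14 with a wide interval (1.26 to 13.6, adjusted p = 0.202). Chat averaged 10.8 ± 5.88 CPM in WT CFA against 3.45 ± 2.32 CPM in WT naive libraries, a fold of 3.16 (1.03 to 9.72, adjusted p = 0.273). Isl1 averaged 1.76 ± 0.866 CPM in WT CFA against 0.729 ± 0.221 CPM in WT naive libraries, a fold of 2.42 (1.31 to 4.48, adjusted p = 0.126). Chrm1, at 6.57 ± 1.54 CPM in WT CFA against 4.06 ± 0.418 CPM in WT naive libraries, came nearest to the threshold with a fold of 1.61 (1.24 to 2.09, adjusted p = 0.0557). DESeq2 called Chrm1 (adjusted p = 0.00489) and Isl1 (0.0459), and edgeR called Chrm1 when only these 8 libraries were fitted (0.0333) or when labelled KO naive library 7 (0.0367) or 8 (0.0277) was left out of the shared estimate of the spread. Of the 9 genes, Slc5a7, Isl1, Chrm1 and Chrm5 had WT CFA libraries that all lay above all WT naive libraries, while 6.13% of tested genes did so. The median log2 fold of the 9 genes was 0.40, against 0.00 over all tested genes. Between Chat, Slc5a7, Isl1 and Chrm1 the Pearson r of log2 CPM over the 16 libraries was 0.748 to 0.994. The counts above therefore do not rest on independent genes. Chrm2 (1.01-fold, 0.943 to 1.08), Ache (0.987-fold, 0.916 to 1.06), Chrm3 (1.07-fold, 0.997 to 1.15) and Chrm4 (0.833-fold, 0.654 to 1.06) did not pass the test.

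Between naive libraries labelled KO and WT, 0 of 9 genes were called by edgeR, beside 1.45% of all tested genes. There was 1 gene at an unadjusted p under 0.05 (13.8% of all tested genes). DESeq2 called 1 of the 9, beside 459 of all 18350 tested genes. That gene was Chrm5 in both cases. It averaged 4.32 ± 0.344 CPM in labelled KO naive against 3.25 ± 0.461 CPM in WT naive libraries, a fold of 1.32 (1.14 to 1.54, adjusted p = 0.0565 by edgeR and 0.0428 by DESeq2). It was called by edgeR when WT naive library 3 was left out (adjusted p = 0.0195). This comparison and that of CFA with naive WT libraries share the 4 WT naive libraries, in which Chrm5 was low. Chrm5 was also the 1 gene of the 9 whose libraries did not overlap, against 7.23% of tested genes. Slc5a7 averaged 17.8 ± 17.8 CPM in labelled KO naive against 9.89 ± 6.52 CPM in WT naive libraries, and its fold of 1.67 had an interval from 0.462 to 6.05 (adjusted p = 0.763). Chat had a fold of 1.41 (0.4 to 4.95), Isl1 1.08 (0.506 to 2.3) and Chrm1 1.3 (0.979 to 1.72, adjusted p = 0.407). Ache (0.968-fold, 0.898 to 1.04), Chrm2 (1.03-fold, 0.96 to 1.11) and Chrm3 (1.01-fold, 0.938 to 1.09) had narrow intervals around 1, and that of Chrm4 was wider (0.886-fold, 0.683 to 1.15).

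Between CFA libraries labelled KO and WT, 0 of 9 genes were called by edgeR, beside 1.6% of all tested genes. Isl1 and Chrm2, 2 of the 9, had an unadjusted p under 0.05, beside 12.3% of all tested genes. DESeq2 called 1 (Isl1, adjusted p = 0.0281), beside 465 of all 18350 tested genes. Isl1 averaged 0.64 ± 0.193 CPM in labelled KO CFA against 1.76 ± 0.866 CPM in WT CFA libraries (SD, n = 4 each), a fold of 0.38 (0.204 to 0.706, adjusted p = 0.142). Slc5a7 averaged 14.7 ± 5.3 CPM in labelled KO CFA against 40.5 ± 22.6 CPM in WT CFA libraries, a fold of 0.365 (0.116 to 1.15, adjusted p = 0.48). Chat averaged 4.44 ± 1.39 CPM in labelled KO CFA against 10.8 ± 5.88 CPM in WT CFA libraries, a fold of 0.416 (0.14 to 1.24, adjusted p = 0.536). The intervals of both Slc5a7 and Chat include 1. Chrm2 averaged 56.8 ± 1.7 CPM in labelled KO CFA against 52.2 ± 1.66 CPM in WT CFA libraries, a fold of 1.09 (1.02 to 1.17, adjusted p = 0.263). The libraries did not overlap for Isl1 (lower) and Chrm2 (higher), which is 2 of 9 genes beside 8.03% of all tested genes in either direction. Chrm1 (0.826-fold, 0.639 to 1.07), Chrm4 (1.14-fold, 0.893 to 1.46), Chrm5 (0.933-fold, 0.812 to 1.07), Chrm3 (1.01-fold, 0.937 to 1.08) and Ache (1.01-fold, 0.936 to 1.09) did not pass.

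Between CFA and naive libraries labelled KO, 0 of 9 genes were called by edgeR, beside 0.185% of all tested genes. At an unadjusted p under 0.05 there were 0 (7.81% of all tested genes). DESeq2 called 0 of the 9, beside 91 of all 18350 tested genes. The libraries overlapped for all 9 genes, while 4.29% of tested genes showed no overlap in either direction. Slc5a7 (0.905-fold, 0.261 to 3.14) and Chat (0.933-fold, 0.274 to 3.18) had the widest intervals, beside the low and high pairs of naive libraries, and both folds changed sign on the log2 scale without naive library 6 or 7. Isl1 had a fold of 0.853 (0.398 to 1.83). Chrm2 had a fold of 1.07 (0.995 to 1.15), Chrm3 1.07 (0.99 to 1.15), Chrm1 1.03 (0.779 to 1.35), Ache 1.03 (0.954 to 1.11), Chrm4 1.07 (0.825 to 1.39) and Chrm5 0.93 (0.802 to 1.08).

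The difference between the CFA effect in libraries labelled KO and that in WT libraries was tested as an interaction. Of the 9 genes 0 were called by edgeR, beside 0.0654% of all tested genes. At an unadjusted p under 0.05 there were 3 (9.86% of all tested genes). DESeq2 called 0 of the 9, beside 87 of all 18350 tested genes. The largest estimates were those of Slc5a7 (log2 difference -2.19 ± 1.14 SE, adjusted p = 0.555), Chat (-1.76 ± 1.11 SE, adjusted p = 0.632) and Isl1 (-1.51 ± 0.67 SE, adjusted p = 0.482). Chrm1 (-0.65 ± 0.26 SE, adjusted p = 0.426) and Chrm5 (-0.50 ± 0.14 SE, adjusted p = 0.223) had smaller estimates with smaller errors. A difference in CFA effect between the genotypes was thus not called for any of the 9 genes, including Chrm5.

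**Figure D3:**
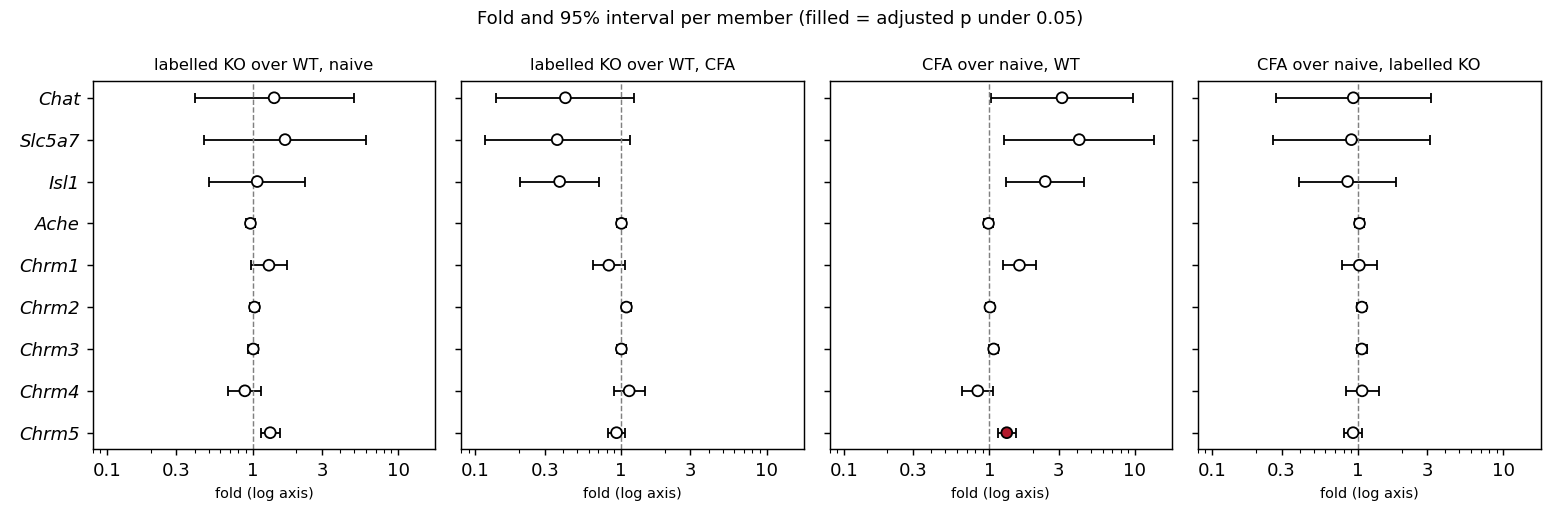
Fold (log axis) of each of the 9 genes in the 4 comparisons with its 95% interval; filled points have an adjusted p under 0.05 by edgeR. Only Chrm5 in WT CFA over WT naive libraries (1.32-fold) is filled, and the intervals of Chat and Slc5a7 are the widest.

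The shared pattern of Chat, Slc5a7 and Isl1 was described by correlation of log2 CPM over the 16 libraries; the values of all genes in a library share its depth and scaling. With Slc5a7, Chat had a Pearson r of 0.994 (Spearman rho 0.997), Isl1 0.886 (0.932) and Chrm1 0.816 (0.85). Without libraries 3 and 5, the 2 farthest from the median of Slc5a7, r was 0.995 for Chat, 0.93 for Isl1 and 0.877 for Chrm1. With the group means removed, r was 0.996 for Chat, 0.897 for Isl1 and 0.791 for Chrm1. So these genes went together within groups as well as across them. Ache had an r of 0.484 with Slc5a7 (0.624 with the group means removed), Chrm2 -0.329 (-0.537), Chrm3 0.0662, Chrm4 -0.0378 and Chrm5 0.144. Over all tested genes the median r with Slc5a7 was -0.00838, and 20 of 18349 genes (0.109%) had an r over 0.8. Beside Chat, Gm2990 was among the genes most like Slc5a7 (0.933), but its reads cannot be told apart from unspliced Chat reads. The genes most like Isl1 were Col5a2 (0.936), Ahnak2 (0.923) and Vipr2 (0.899), and among those most like Chrm1 were Chodl (0.903) and Prune2 (0.893).

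**Figure D4:**
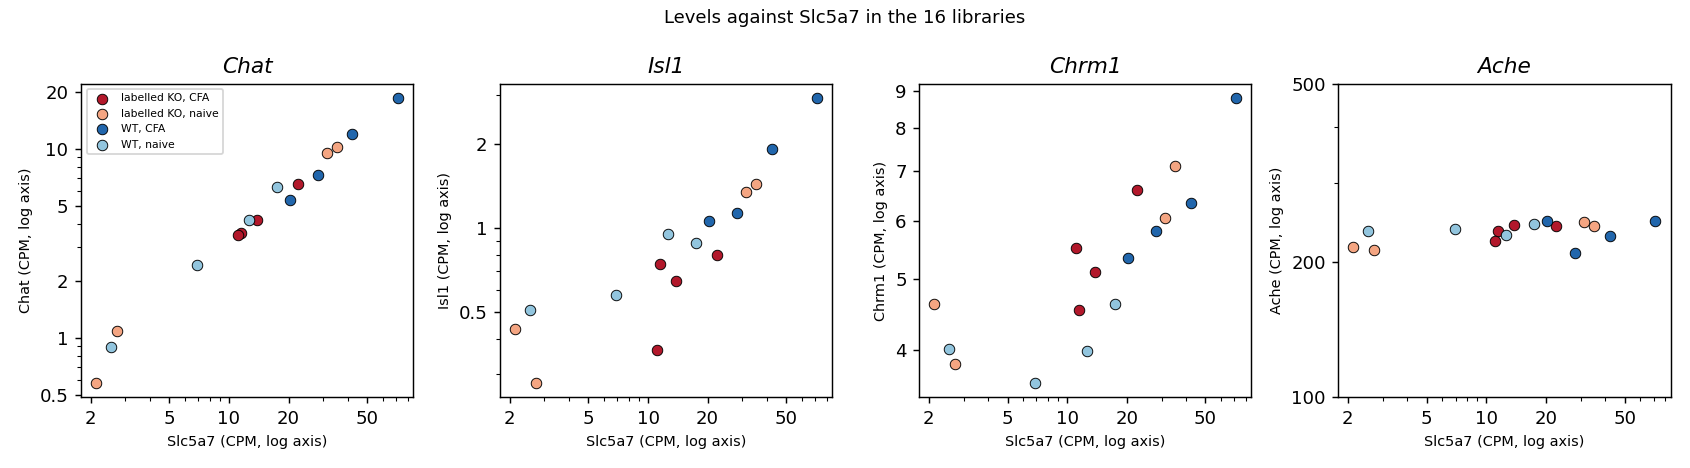
Chat, Isl1, Chrm1 and Ache against Slc5a7 in the 16 libraries (CPM, log axes), by group. Chat follows Slc5a7 closely (r = 0.994), Isl1 (0.886) and Chrm1 (0.816) less closely, and Ache changes little across the 33.5-fold range of Slc5a7.

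Markers of cell groups inside and outside the thalamus were listed and set beside Slc5a7. Of the 11 listed markers of motor neurons and the Edinger-Westphal nucleus, a midbrain group that holds peptide neurons and cholinergic neurons, 8 were tested. Their median r with Slc5a7 was 0.817, and 5 of the 8 had an r over 0.8, among them Tbx20 (0.857), Chodl (0.84), Prph (0.828) and Calca (0.806). Calcb had 0.799, Cartpt 0.676 and Ucn 0.582. Tbx20, with 0 to 38 counts per library, and Calcb, with 11 to 105, were measured from few counts. The 9 markers of the medial habenula, another cholinergic cell group beside the thalamus, had a median r of 0.0634 and a highest r of 0.29. The 8 pontine cholinergic and monoamine markers had a median of 0.178, the 4 tested forebrain cholinergic markers -0.293 and the 11 tested thalamic relay markers -0.0801. The medians were 0.146 for 7 striatal, 0.0387 for 7 cortical and hippocampal and 0.136 for 6 thalamic reticular and zona incerta markers. None of these 7 lists held a gene with an r over 0.8. Apart from Nos1 (0.211), the pontine list holds serotonin, dopamine and noradrenaline neuron genes (Tph2, Slc6a4, Fev, Th, Slc6a3, Slc6a2 and Dbh). Its median therefore cannot show how pontine cholinergic neurons moved. With the group means removed the motor neuron list and the pontine list lay closer together. The motor neuron and Edinger-Westphal median was then 0.807, with Cartpt at 0.493 and Ucn at 0.347, while the pontine and monoamine median was 0.472 (0.599 for Tph2, a serotonin synthesis gene) and that of the medial habenula 0.306. The median over all tested genes was -0.0122.

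**Figure D5:**
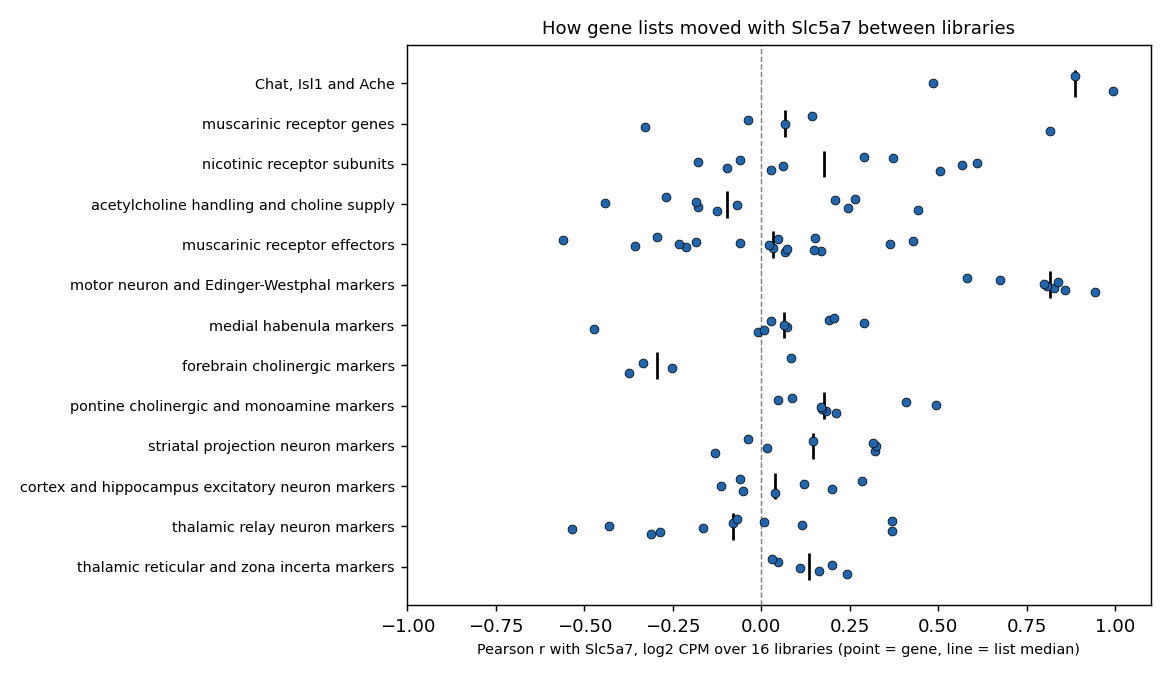
Pearson r with Slc5a7 over 16 libraries for each gene of each list (points), with the median of the list as a line. The motor neuron and Edinger-Westphal list has a median of 0.817, and the medians of the other marker lists lie between -0.293 and 0.178.

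The summed level of the 11 motor neuron and Edinger-Westphal markers was 68.8 to 200.5 CPM in labelled KO CFA, 45.4 to 265.9 CPM in labelled KO naive, 263.8 to 360.6 CPM in WT CFA and 31.2 to 72.9 CPM in WT naive libraries. The sum rests mostly on Cartpt, an Edinger-Westphal peptide gene, at 103 ± 51.6 CPM in labelled KO CFA, 110 ± 86.6 CPM in labelled KO naive, 277 ± 33.3 CPM in WT CFA and 33.2 ± 16.7 CPM in WT naive libraries (SD, n = 4 each). Mnx1, which defines spinal motor neurons, had 0 counts in all 16 libraries, and Phox2a stayed at or under 0.0865 CPM. Isl2 had 2 to 10 counts per library. Its means were 0.151 CPM in labelled KO CFA, 0.138 in labelled KO naive, 0.154 in WT CFA and 0.167 in WT naive libraries. Mnx1, Phox2a and Isl2 were not among the 8 tested markers, so the r values and folds do not cover them. In WT CFA over WT naive libraries 4 of the 8 tested markers rose, namely Calcb (4.87-fold, adjusted p = 0.01), Chodl (2.72-fold, 0.0214), Cartpt (8.21-fold, 0.024) and Ucn (9.18-fold, 0.0434, all by edgeR), and 0 fell, beside 1.42% of all tested genes called higher. The median log2 fold of the 8 was 2.23, against 0.00 over all tested genes. The list was chosen with earlier results of these data known. Most of its tested markers also moved together with Slc5a7, so the 8 folds are not 8 independent observations. Leaving out 1 library ended the call of Ucn in 11 of 16 fits and those of Cartpt and Chodl in 5 of 16 each, among them the fit without WT naive library 2 (adjusted p = 0.125 for Ucn, 0.0796 for Cartpt and 0.0541 for Chodl). Calcb was called in all 16, though from only 11 to 105 counts per library. Without WT naive library 3 the log2 fold of Ucn was 3.92, against 3.20 with all libraries. In the other 4 comparisons 0 of the 8 were called by edgeR. In CFA labelled KO over WT all 8 had folds under 1 (median log2 fold -1.07). Of these, 6 had an unadjusted p under 0.05, beside 12.3% of all tested genes. DESeq2 called 2 (Chodl and Calca), beside 465 of all 18350 tested genes. In the interaction 6 had an unadjusted p under 0.05, beside 9.86% of all tested genes. DESeq2 called Cartpt, Chodl and Calcb there, beside 87 of all tested genes. In naive labelled KO over WT 3 had an unadjusted p under 0.05, beside 13.8% of all tested genes. DESeq2 called Calcb there, beside 459 of all tested genes. In labelled KO CFA over naive both counts were 0, beside 7.81% of all tested genes and 91 called by DESeq2. Of the 8 tested markers, 5 had an r over 0.8 with Slc5a7. Cartpt and Ucn followed it less closely, with r of 0.493 and 0.347 once the group means were removed. The part of these markers in the folds of Chat, Slc5a7, Isl1 and Chrm1 was not tested.

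The summed level of the medial habenula markers was 144 to 165 CPM in labelled KO CFA, 137 to 176 CPM in labelled KO naive, 143 to 155 CPM in WT CFA and 148 to 173 CPM in WT naive libraries. This sum rests mostly on Tac1, a neuropeptide gene, with a mean of 92.9 CPM over all libraries. Among the medial habenula, pontine and monoamine, striatal, cortical and thalamic reticular lists, 0 genes were called by edgeR in the 5 comparisons. Each list had 0 to 4 genes at an unadjusted p under 0.05 per comparison, and DESeq2 called 0 to 2. Over all 18350 tested genes, 7.81% to 17.6% had such a p and DESeq2 called 87 to 762 genes per comparison. The summed level of the 6 forebrain cholinergic markers was 10.5 to 14.2 CPM in labelled KO CFA, 9.56 to 12.1 CPM in labelled KO naive, 7.88 to 14 CPM in WT CFA and 9.76 to 13.5 CPM in WT naive libraries, and Lhx8, a defining factor of that lineage, had no counts in 14 of the 16 libraries. In that list Ngfr, a neurotrophin receptor, fell in WT CFA over WT naive libraries (0.585-fold, adjusted p = 0.00734). Ngfr was higher in labelled KO CFA than in WT CFA libraries (1.48-fold, adjusted p = 0.0499), a call that was lost in 12 of the 16 fits without 1 library. The interaction of Ngfr was not called by edgeR (log2 difference 1.08, adjusted p = 0.0577). DESeq2 called it (adjusted p = 0.00205), as did edgeR without a filter on low counts (0.0142).

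For the rest of the pathway, the counts of calls are to be read against the shares of all tested genes called by edgeR, which lay between 0.0654% and 2.23% in the 5 comparisons, so that 0 or 1 call in a list of this size lies near the background. At an unadjusted p under 0.05 the shares of all tested genes were 13.8% in naive labelled KO over WT, 12.3% in CFA labelled KO over WT, 17.6% in WT CFA over naive, 7.81% in labelled KO CFA over naive and 9.86% in the interaction. Of 16 nicotinic receptor subunits, the ion channels that acetylcholine opens, 10 were tested and 0 were called by edgeR in any of the 5 comparisons. At an unadjusted p under 0.05 there were 2 in naive labelled KO over WT, 1 in CFA labelled KO over WT, 2 in WT CFA over naive, 1 in labelled KO CFA over naive and 1 in the interaction, and DESeq2 called only Chrna5 in the first of these (0.355-fold, adjusted p = 0.0557 by edgeR). Of 10 genes of acetylcholine handling and choline supply, Lynx1, which encodes a membrane protein that dampens nicotinic receptors, was called in 1 comparison. It was higher in labelled KO naive (463 ± 46.3 CPM) than in WT naive libraries (361 ± 31.9 CPM, SD, n = 4 each), a fold of 1.28 (1.15 to 1.44, adjusted p = 0.0294 by edgeR). This call was lost in 4 of the 16 fits without 1 library (WT naive library 2 or 3, labelled KO naive library 6 or 8) when only these 8 libraries were fitted (0.0984) and without a filter on low counts (0.0734). In the other comparisons 0 of the 10 were called by edgeR or DESeq2, with 5 at an unadjusted p under 0.05 in CFA labelled KO over WT, 4 in WT CFA over naive, 0 in labelled KO CFA over naive and 1 in the interaction. Of 17 genes of muscarinic receptor effectors, such as G protein subunits and potassium channels, all were tested and 0 were called by edgeR in the 5 comparisons. DESeq2 called Kcnj3, a channel subunit opened by Gi/o-coupled receptors, in naive labelled KO over WT and Gnai2, a Gi alpha subunit, in WT CFA over naive libraries. Of the 17 effectors, 2 had an unadjusted p under 0.05 in naive labelled KO over WT, 1 in CFA labelled KO over WT, 1 in WT CFA over naive, 3 in labelled KO CFA over naive and 2 in the interaction.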

How the data were processed

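The deposited tables hold raw counts, 1 whole number for each Ensembl gene, for each of the 16 libraries. The authors used TopHat, DESeq2 and mm10, per the submitters' processing notes; their versions, the annotation release and the counter's strand setting were not given in the sources used here. RNA came from TRIzol extraction, and the library kit was TruSeq RNA version 2, per the labels' protocols; that kit keeps no strand. The 5 summary lines that end each table have the form HTSeq writes and were left out: reads without a feature (11.2% to 12.2% of listed reads), ambiguous (2.2% to 2.3%) and not uniquely aligned (24.1% to 26.0%). GENCODE gave symbols for 37607 of 38924 gene IDs.

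Tests used edgeR 4.0.16 with limma 3.58.1 in R 4.3.3. Genes passing filterByExpr at a minimum count of 10 (18350 genes, 99.96% of counts) entered a robust quasi-likelihood fit of all 16 libraries with TMM scaling and 1 coefficient for each group. The 5 contrasts were two-sided, with Benjamini-Hochberg adjustment over all tested genes and a call at an adjusted p under 0.05; every adjusted p is from this test unless DESeq2 1.42.0 is named. Intervals are 95%. Correlations used log2 CPM with a prior count of 2. CPM used TMM-scaled library sizes and RPKM the summed exon length. The fitting was run on simulated data in which all genes were given the same spread. It does not show how the test behaves for genes as variable as Slc5a7, Chat and Isl1.

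The genes and lists were chosen with earlier results of these data known. Named genes are the members, Rgs4, up to 4 called genes per list and comparison, and the 3 genes most like each member by Pearson r; other list markers were named after their values were seen, and 1 listed marker that meets the rule is not reported here by name. All measured members passed the filter, so no permutation test was needed. Replicates of a group differed by more than sampling noise (chi-square per degree of freedom 3.36 to 12.8), and p-values measure the spread between these pools of 2 mice. Alternatives were DESeq2, its size factors in edgeR, no filter, a fit of the compared groups only, and leaving out each library.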

Additional observations from a re-analysis of the deposited data

How the results depend on the processing

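No paired analysis was possible because library numbers run from 1 to 16 and none is shared between groups. Under DESeq2 the genes called numbered 459 (1 of the 9 members) in naive labelled KO over WT, 465 (1 member) in CFA labelled KO over WT, 762 (3 members) in WT CFA over naive, 91 in labelled KO CFA over naive and 87 in the interaction, against 266, 294, 409, 34 and 12 by edgeR. Without a filter on low counts the interaction had 31 calls. Leaving out 1 library gave 135 to 296 calls (0 to 1 members) in naive labelled KO over WT, 195 to 407 (0 to 0 members) in CFA labelled KO over WT, 178 to 754 (0 to 2 members) in WT CFA over naive, 16 to 42 in labelled KO CFA over naive and 5 to 27 in the interaction. The count moved by over 1.5 times without library 2, 3, 6 or 8 in naive labelled KO over WT, 16 in CFA labelled KO over WT, 2, 3, 8, 10, 11 or 12 in WT CFA over naive, 6, 13, 15 or 16 in labelled KO CFA over naive, and 4, 5, 6, 7, 8, 11, 13, 15 or 16 in the interaction; the cause was not tested. For single genes, 1563 alternative values kept their direction and side of the threshold, 21 passed it newly and 57 no longer passed it. Another 42 changed sign, all of them between values that were not called. With DESeq2 this was the log2 fold of Calcb in labelled KO CFA over naive (-0.0089). The others came from leaving out 1 library, over which the log2 folds in naive labelled KO over WT ranged from -0.074 to 0.997 for Chat, -0.23 to 0.41 for Isl1, -0.0080 to 0.090 for Chrm2, -0.014 to 0.044 for Chrm3 and -0.014 to 0.034 for Rgs4. In CFA labelled KO over WT they ranged from -0.034 to 0.041 for Ache and -0.015 to 0.063 for Chrm3, and in WT CFA over naive from -0.046 to 0.028 for Ache and -0.00081 to 0.036 for Chrm2. In labelled KO CFA over naive they ranged from -0.59 to 0.44 for Slc5a7, -0.58 to 0.47 for Chat, -0.53 to 0.11 for Isl1, -0.093 to 0.18 for Chrm1, -0.040 to 0.17 for Chrm4, -0.40 to 0.50 for Cartpt, -0.73 to 0.48 for Ucn, -0.39 to 0.050 for Chodl and -0.30 to 0.43 for Calcb. The interaction of Chrm3 ranged from -0.033 to 0.046. The log2 fold of Chrm5 in WT CFA over naive stayed between 0.33 and 0.50, with adjusted p from 0.016 to 0.115. Isl1, with as few as 8 counts, and Chrm4, at 1.27 to 2.42 CPM, were measured from few counts.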

Other observations

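The genes nearest to Ache and to Chrm2 to Chrm5 over the 16 libraries were others than Slc5a7. For Ache these were Slc10a4 (r = 0.88), a vesicular transporter of cholinergic and monoamine neurons, Slc39a4 (0.857) and Cndp1 (0.856). Chrm2 had Gm3076 (0.891), Rab30 (0.817) and Gm23136 (0.802), and Chrm3 had Zbtb3 (0.831), Arhgap32 (0.797) and Wdr70 (0.793). Chrm4 had Mfsd4b4 (0.775), Col4a4 (0.737) and Brdt (0.725), and Chrm5 had Zfp867 (0.867), Spdef (0.865) and Tmem132b (0.834). These are the highest of 18349 values for each gene and are given as a description.

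Serotonin neuron markers were present in all libraries and varied between them. Over all 16 libraries Tph2 averaged 326 CPM and Slc6a4, the serotonin transporter gene, 252 CPM. Which tissue the punches held was not tested. Tph2, which makes serotonin, averaged 357 ± 68.6 CPM in labelled KO CFA, 238 ± 155 CPM in labelled KO naive, 231 ± 121 CPM in WT CFA and 477 ± 156 CPM in WT naive libraries (SD, n = 4 each), and its r with Slc5a7 was 0.184 over 16 libraries and 0.599 with the group means removed. None of the 8 pontine cholinergic and monoamine markers was called by edgeR in any of the 5 comparisons. Among them 0 to 4 had an unadjusted p under 0.05, beside 7.81% to 17.6% of all tested genes. DESeq2 called 0 to 2 of them, beside 87 to 762 of all 18350 tested genes. Tph2 had a fold of 0.484 in WT CFA over naive (adjusted p = 0.333). Ntng1, a thalamic relay marker, was higher in WT CFA than in WT naive libraries (1.15-fold, adjusted p = 0.0105) and in labelled KO naive than in WT naive libraries (1.13-fold, adjusted p = 0.0359), comparisons that share the WT naive libraries. The second of these calls was lost without any 1 of libraries 1, 2, 3, 4, 5, 6 and 8 (adjusted p = 0.0505 to 0.117) and when only the 8 libraries compared were fitted (0.0647). The interaction of Ntng1 was not called by edgeR (log2 difference -0.273, adjusted p = 0.0941). DESeq2 called it (adjusted p = 0.00696), as did edgeR without a filter on low counts (0.0306).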
